A study of Mus musculus with 8 samples.

Results

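To describe the normal juvenile cardiac fibroblast, the 4 libraries labelled WT were taken out of the 8 libraries of the series, and the other 4 libraries, from mice lacking *Lmna* in the *Pdgfra* lineage, were not compared with them. The WT mice carried wild-type *Lmna*, are kept apart in the study from mice with *Pdgfra-Cre* alone, were of the C57BL/6 (mixed) strain and were 3 to 4 weeks of age, with 1 mouse per library. Live cells of the ventricles that bound an antibody to PDGFRA and lacked hematopoietic lineage markers were collected by fluorescence-activated cell sorting after collagenase digestion. Their total RNA was depleted of ribosomal RNA and sequenced, and the reads were counted per gene. The gate on PDGFRA and the gate against blood lineages limit what the libraries can show, since a fibroblast with little PDGFRA on its surface was not collected, and the level of *Pdgfra* itself is partly set by the sort.

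Cardiac fibroblasts are the mesenchymal cells that lay down and remodel the collagen scaffold of the heart, and most of those in the ventricles descend from the epicardium. They hold the fibrillar collagens, the proteoglycans that space the fibrils and the basement membrane proteins that surround myocytes in balance, sense growth factors and tension through receptor kinases and integrins, and signal to myocytes, vessels and leukocytes through secreted factors. In the first weeks after birth the heart is still growing and its matrix is still maturing.

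WT replicates 1 to 4 held 10741519, 2080555, 6345584 and 9873750 counts, and all values by library follow this order. A count was found for 15267, 14643, 13256 and 16564 of the 18957 listed genes, and for 13937, 14643, 12784 and 14757 genes when every library was thinned to 2080555 counts. CPM, the counts after TMM scaling to 1000000 per library, follow a gene across libraries, while TPM, counts per kilobase of exon scaled to a sum of 1000000, compare genes with each other, and a mean is given ± SD over the 4 libraries (n = 4). No genes of the mitochondrial genome are listed. A gene at 3 counts or fewer in a library was taken to be at the floor, which is 1.48 CPM in the shallowest library, and the 95% exact binomial interval of any share printed below reaches at most 0.0679 percentage points to either side, for counting error only. With 4 libraries no exact two-sided test of an order within libraries can pass a threshold of 0.05, so the order of genes is given as the number of libraries that show it. Across the 10928 genes with enough counts in every library, the Spearman correlation of log2 CPM between libraries lay between 0.882 and 0.969 with a median of 0.925. WT replicate 3 stood apart, with 0.882 to 0.913 in its 3 pairs, while the pairs among the other 3 libraries gave 0.937 to 0.969. It also differed by more than 2-fold from the median of the other libraries for 12.6% of 9318 genes at a mean of at least 10 CPM, against 3.31%, 6.81% and 2.38% in WT replicates 1, 2 and 4. With the genes split into 5 equal groups by the length of their longest transcript, those of the shortest group lay 0.12 above and those of the longest 0.16 below the other libraries in it on the log2 scale, by their medians. The part of gene length in the low values of matrix genes in this library was not tested. Where it was the lowest, the values by library show the level in the other 3. Y-linked genes were counted in WT replicates 1, 2 and 4 and not in WT replicate 3, where *Ddx3y*, *Uty* and *Kdm5d* were at 0 counts and *Eif2s3y* at 2 counts, against 1106, 72 and 737 counts of *Ddx3y* in the other 3. The labels used here give no sex for a mouse, and with 1 such library a difference by sex cannot be told apart from whatever else sets it apart.

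The fibroblast markers made up 3.87 ± 0.254% of all gene counts, with 4.09, 4.09, 3.67 and 3.63% in the 4 libraries. *Dcn*, which encodes the proteoglycan decorin, had 11254, 7059, 11475 and 11183 TPM. *Col3a1* (type III collagen) had 8284, 10526, 6236 and 6061 TPM and *Col1a1* (type I collagen) 2231, 3389, 840.1 and 2022 TPM. The genes of the sorted receptor and of the epicardial factor TCF21 were lower, with 723, 514, 713 and 835 TPM for *Pdgfra* and 534, 390.1, 187 and 435 TPM for *Tcf21*. All 5 markers were therefore present in each library, and *Dcn* lay above *Col3a1* in 3 of 4 libraries, the exception being WT replicate 2.

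Transcripts of other cell types were counted at low levels. The 15 endothelial markers summed to 1583, 1299.7, 1403 and 1340.5 CPM, the 17 cardiomyocyte markers to 1552, 1504, 1054 and 1297 CPM and the 15 markers of pericytes and smooth muscle to 859, 806, 687 and 640.4 CPM, where the 5 fibroblast markers summed to 40068, 41974, 36567 and 36221 CPM. The endothelial sum was led by *Tek*, *Eng*, *Ly6c1* and *Cd36*, while *Pecam1* and *Cdh5*, which define endothelial cells more narrowly, had 36.0 ± 4.23 and 45.5 ± 10.98 TPM. *Tek*, the angiopoietin receptor, was 9.37 to 13.8 times as high as *Pecam1* on the TPM scale. The 23 leukocyte markers summed to 173, 199, 234 and 85.9 CPM, and *Itgam*, *Ms4a1* and *S100a9* stayed at or under 3 counts in every library. In bulk RNA, fewer cells of a type and less RNA per cell cannot be told apart.

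**Figure D1:**
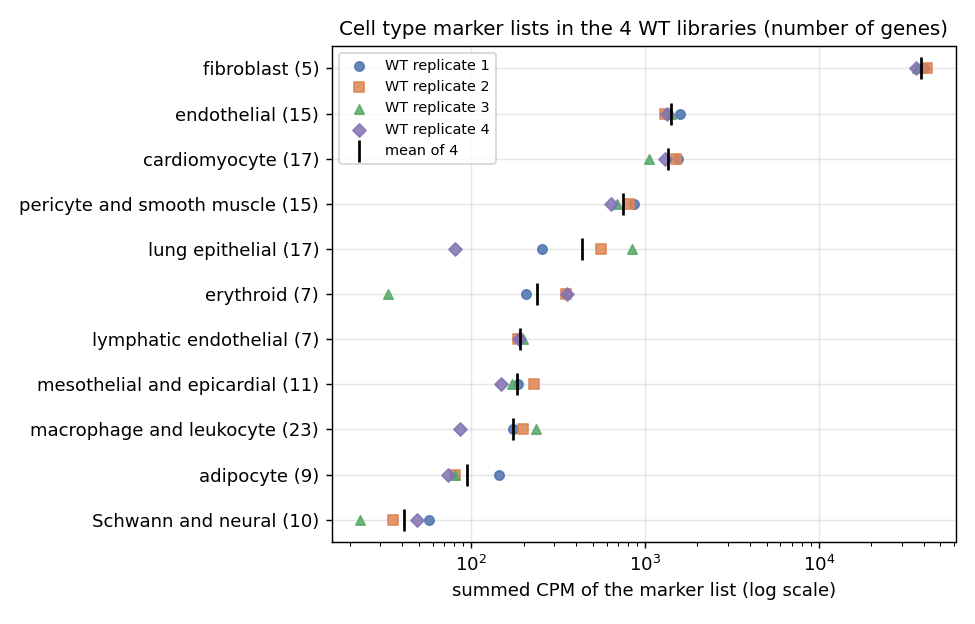
Summed CPM (log axis) of each cell type marker list in the 4 WT libraries, with the number of listed genes in parentheses, 1 point per library and a bar at the mean. The fibroblast list lies between 36221 and 41974 CPM in every library, while the lung epithelial list spreads from 81.0 to 841 CPM and the erythroid list from 33.3 to 357 CPM.

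Some of these lists moved between the libraries more than others. Cardiomyocyte markers were lowest in WT replicate 3 for 11 of 17 genes, where 31.2% of the 17056 genes over the floor in at least 1 library were lowest in it, with 69.0, 110.0, 8.17 and 68.2 CPM for *Actc1*, the alpha-cardiac actin, 32.7, 80.9, 4.71 and 41.0 CPM for *Tnni3* (troponin I), and 1 count of *Tnnc1* (troponin C) in that library. The sum of this list, given above, was also lowest in that library, but by much less than these genes. *Hbb-bs* and *Hba-a1*, hemoglobin genes whose reads can be shared with near-identical copies, were also lowest there, with 129.6, 191, 18.7 and 207 CPM and 47.5, 117, 11.3 and 109 CPM. A list of 17 lung epithelial genes, added after the values were seen, gave 254, 556, 841 and 81.0 CPM and was lowest in WT replicate 4 for 15 of them, against 12.9% of all genes. Its surfactant gene *Sftpc* had 55.6, 139.6, 226 and 8.28 CPM, *Sftpb* 36.0, 74.5, 105 and 2.73 CPM and *Sftpa1* 44.8, 78.0, 154 and 6.56 CPM. The part of these lists in other values of the same libraries was not tested.

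The most abundant transcript was that of *Gsn* (ENSMUSG00000026879.14, mm10, chr2:35256380-35307892, plus strand), which encodes gelsolin, a protein that severs and caps actin filaments and is also made in a secreted plasma form. It had 41974, 43092, 60569 and 53491 TPM, or 49781 ± 8866 TPM, ranked first in all 4 libraries and took 3.18, 3.22, 4.96 and 4.16% of all counts. *Dcn* (ENSMUSG00000019929.16, chr10:97479609-97518143) ranked second by the mean with 10243 ± 2126 TPM, and *Gsn* was 3.73 to 6.10 times as high in every library. The counts sum over the alternative starts of *Gsn* and do not separate the cytoplasmic from the secreted form.

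The stretches of 100 bases before the 3 starts of *Gsn* in RefSeq (GRCm38.p6, plus strand of chromosome 2) and before the start of *Pdgfra*, the gene of the sorted receptor (plus strand of chromosome 5), are shown because these genes head the profile and define the gate. Capitals mark the letters of a GC box, GGGCGG on either strand. Neither TATAAA nor CCAAT occurs in any of them on either strand.
Gsn, chr2:35256259-35256358: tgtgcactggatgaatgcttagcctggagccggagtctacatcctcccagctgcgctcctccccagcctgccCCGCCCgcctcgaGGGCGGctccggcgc
Gsn, chr2:35266644-35266743: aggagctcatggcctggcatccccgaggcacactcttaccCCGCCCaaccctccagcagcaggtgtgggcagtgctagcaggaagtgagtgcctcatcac
Gsn, chr2:35282280-35282379: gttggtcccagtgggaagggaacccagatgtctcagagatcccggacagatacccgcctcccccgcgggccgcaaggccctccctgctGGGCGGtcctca
Pdgfra, chr5:75152151-75152250: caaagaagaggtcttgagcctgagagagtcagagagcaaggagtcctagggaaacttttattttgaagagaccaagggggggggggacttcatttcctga
Each of the *Gsn* windows holds a GC box, and the *Pdgfra* window holds none. A GC box occurs in 24.7% of the 32851 windows of this length in the RefSeq table, in 46.5% of those of the genes tested here, in 43.7% of the 87 windows of the 100 most abundant genes, and in 52.5% of the 80 windows of matrix genes at 100 TPM or more. These are matches of letters and not bound sites.

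The RNA was spread over many genes. The 10 highest genes of a library took 11.7 ± 0.956% of its counts, the highest 100 took 28.7 ± 0.817% and the highest 500 took 46.2 ± 0.940%. In all 4 libraries 11033 genes had at least 1 CPM, 8043 at least 10 CPM, 1477 at least 100 CPM and 67 at least 1000 CPM. Among the 30 highest genes by TPM, 18 were shared by every library and 41 were found in at least 1.

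Genes of the matrix lists made up 15 of the 30 highest genes, among them *Serping1*, which is counted with the protease inhibitors. Besides *Dcn* and *Col3a1* they were *Mgp*, which encodes matrix Gla protein, an inhibitor of calcification, *Igfbp7*, *Sparc*, which encodes the collagen-binding protein osteonectin, *Lum* (lumican), *Serpinh1*, which encodes the collagen chaperone HSP47, *Col6a1*, the gelatinase *Mmp2*, *Dpt* (dermatopontin), *Sparcl1*, *Nid1* (nidogen), *Col4a1* and *Lamc1*. *Mgp* had 9419, 3945, 10127 and 8859.9 TPM and *Igfbp7* 6484, 6109, 7733 and 5728 TPM. *Sparc* had 7047, 6915, 5485 and 5362 TPM, and *Sparcl1*, its relative, 4718, 1464, 2044 and 4117 TPM. *Sparc* differed little between the libraries, whereas *Mgp* and *Sparcl1* were lowest in WT replicate 2.

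Outside the matrix lists the 30 highest genes had mixed roles. *Eef1a1*, an elongation factor, had 9811 ± 1494 TPM, *Actb* (beta-actin) 8367 ± 986 TPM and *B2m*, the light chain of MHC class I, 3717 ± 259.8 TPM. *Lgals1* (galectin-1) had 4076 ± 530.1 TPM, and *Serping1*, the C1 inhibitor of complement counted above, 3915 ± 467 TPM. *Axl*, *Dpep1*, *Anxa5*, *Eef2* and *Ifi27l2a* completed the named protein-coding genes of this group. The values of *Rplp1*, *Rps15*, *Gm10800*, *Gm21738* and *Lars2* are uncertain, since these genes share sequence with other copies or, for *Lars2*, hold a stretch like ribosomal RNA. The 82 cytosolic ribosomal protein genes together took 2.37 ± 0.338% of the counts.

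**Figure D2:**
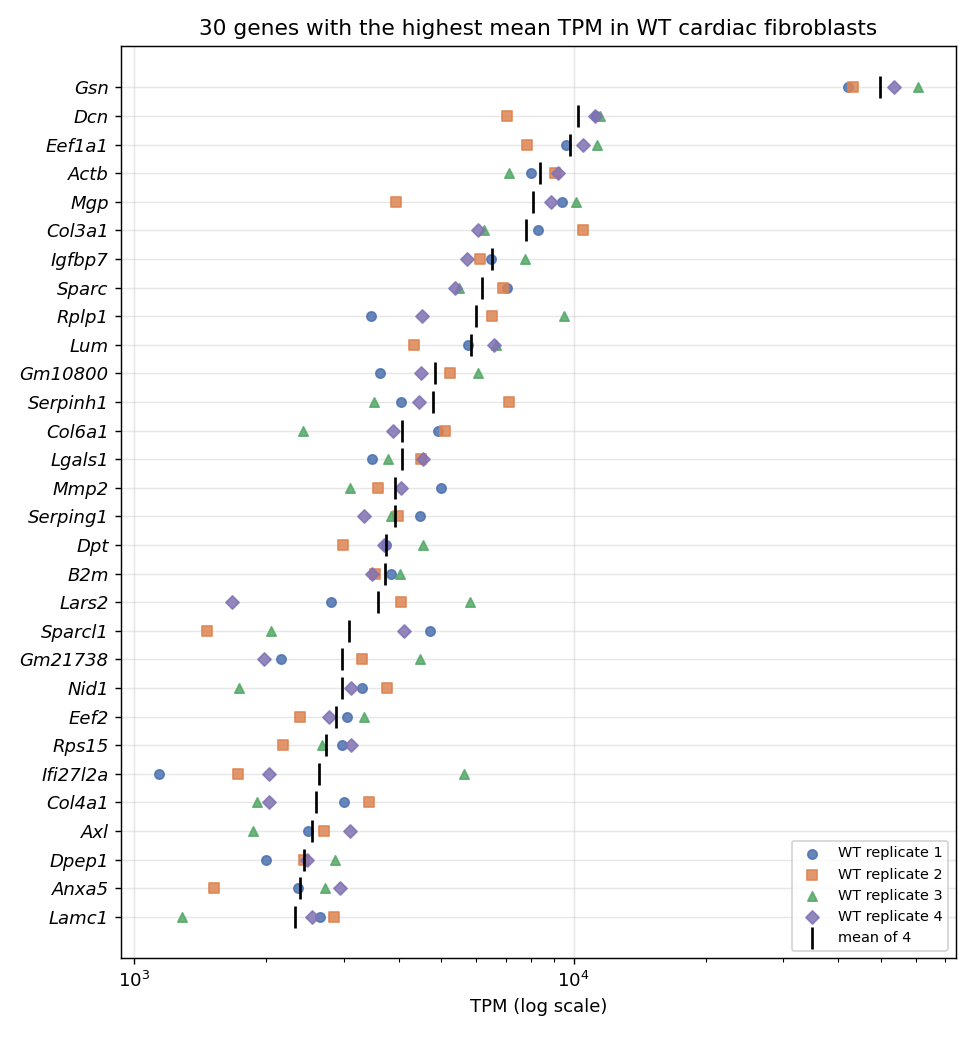
TPM (log axis) of the 30 genes with the highest mean TPM, 1 point per WT library and a bar at the mean. *Gsn* lies between 41974 and 60569 TPM, apart from all others, while *Mgp* and *Sparcl1* are low in WT replicate 2 and *Ifi27l2a* is high in WT replicate 3.

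Matrix genes took 17.8 ± 2.01% of all counts, with 18.6, 19.9, 15.2 and 17.4% in the 4 libraries. Of 272 listed matrix genes, 102 had at least 100 TPM in every library and 26 at least 1000 TPM. The median of the 272 genes was 46.8 TPM, where that of all 18957 listed genes was 8.96 TPM. Shares of counts weigh long genes more, and as shares of TPM the matrix lists took 14.01% and the fibrillar collagens 1.48%, where the counts gave 3.40 ± 0.849%. The 44 collagen chains took 5.599 ± 1.33% and were led by *Col3a1* (ENSMUSG00000026043.18, chr1:45311538-45349706). Collagens were highest in WT replicate 2, with 6.04, 7.24, 4.19 and 4.93% in the 4 libraries, or 3.12, 3.74, 1.93 and 2.49% as shares of TPM.

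Type III and type I collagens form the fibrils that bear tension in the ventricle. *Col1a2*, the second chain of type I collagen, had 2146, 2693, 1525 and 1703 TPM, close to *Col1a1* in WT replicates 1, 2 and 4. The ratio of *Col1a1* to *Col1a2* was 1.04, 1.26, 0.551 and 1.19, where the protein holds 2 alpha1 chains for each alpha2 chain. *Col3a1* was 3.71, 3.11, 7.42 and 2.998 times as high as *Col1a1*. WT replicate 3 was therefore the exception in both ratios, and without it they lay between 1.04 and 1.26 and between 2.998 and 3.71. Both depend on the gene length used, and with the longest transcript in place of all exons their means moved from 1.01 to 0.481 and from 4.31 to 6.87. *Col5a1* and *Col5a2*, the chains of type V collagen, which sets fibril diameter, had 1433 ± 586 and 689 ± 77.6 TPM. *Col5a3* had 714 ± 164 TPM, while *Col11a1*, a chain of the fibrils of cartilage, had 1.67 ± 0.581 TPM.

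Type IV collagen forms the network of basement membranes. *Col4a1* had 3008, 3418, 1902 and 2028 TPM and *Col4a2* 1157, 1382, 621 and 759 TPM, a ratio of 2.60, 2.47, 3.06 and 2.67 against 2 alpha1 chains for each alpha2 chain in the common protein. The genes of the other chains were lower, with 177 ± 19.0 TPM for *Col4a5*, 80.1 ± 19.5 TPM for *Col4a4* and 37.9 ± 12.5 TPM for *Col4a3*. *Col15a1*, a collagen that links basement membranes to the matrix around them, had 2051 ± 478 TPM. Type VI collagen, the beaded filament that anchors cells to the interstitium, was transcribed at unequal chain levels. *Col6a1* was 3.15, 2.69, 3.64 and 2.73 times as high as *Col6a2*, and *Col6a3* reached 0.230, 0.252, 0.240 and 0.260 of the level of *Col6a1*, although the protein holds 1 of each chain. The order *Col6a1*, *Col6a2*, *Col6a3* was the same in all 4 libraries, and with the length of the longest transcript in place of all exons the mean ratio of *Col6a1* to *Col6a2* moved from 3.05 to 1.92.

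Laminins, nidogens and other basement membrane glycoproteins took 1.97 ± 0.480% of the counts, with 2.24, 2.27, 1.26 and 2.13% in the 4 libraries, and a mean of 0.884% as a share of TPM. *Nid1*, which links laminin to type IV collagen, had 3296, 3765, 1729.6 and 3119 TPM and *Lamc1*, the gamma1 chain, 2652, 2843, 1284 and 2533 TPM. *Lamb1*, the beta1 chain, was 0.571, 0.452, 0.577 and 0.516 times as high as *Lamc1*, and this ratio moved from a mean of 0.529 to 0.836 with the longest transcript. Among the alpha chains, *Lama2*, the chain around muscle fibers, had 1115, 834, 412 and 913 TPM and *Lama4*, the chain of vessels, 586, 548, 381 and 602 TPM. Each of these 5 genes was lowest in WT replicate 3, and without it the list took 2.13 to 2.27% of the counts. *Hspg2*, which encodes the basement membrane proteoglycan perlecan, was also lowest there, with 1410.3, 1672, 759 and 1490.0 TPM.

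Leucine-rich proteoglycans were headed by *Dcn*, the matrix gene with the highest mean. *Lum* had 5746, 4328, 6672 and 6593 TPM, *Bgn* (biglycan) 1450.0, 2559.8, 1798 and 1817 TPM and *Ogn* (osteoglycin) 1492, 1318, 1696 and 1385 TPM. *Dcn* and *Lum*, which bind to collagen fibrils and limit their width, were lowest in WT replicate 2, where *Bgn* and the fibrillar collagens were highest. *Prelp* and *Aspn* followed with 713 ± 103 and 701 ± 225 TPM, and *Kera*, a proteoglycan of the cornea, stayed at or under 3 counts in every library.

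Elastic fiber genes took 1.62 ± 0.260% of the counts and 1.07% as a share of TPM. *Fbln2* and *Fbn1*, which encode fibulin-2 and the microfibril protein fibrillin-1, had 1889 ± 327 and 1672 ± 505 TPM. *Mfap4* and *Mfap5*, microfibril-associated genes, had 1342 ± 479 and 1154 ± 218 TPM, and *Ltbp4*, which holds latent TGF-beta in the matrix, had 1336 ± 354 TPM. *Eln*, the gene of elastin, had 1148, 1167, 515 and 767 TPM and was lowest in WT replicate 3. Matricellular and adhesive proteins took 2.44 ± 0.112% of the counts, with 2.60, 2.38, 2.36 and 2.44% in the 4 libraries, and 3.72, 2.79, 3.52 and 3.32% as shares of TPM, which were less even. *Tnxb* and *Smoc2*, which follow the genes named above in this group, had 1332 ± 550.4 and 1117 ± 133 TPM.

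The machinery of collagen assembly was transcribed along with its substrates. *Serpinh1* had 4057, 7109.9, 3513 and 4440.5 TPM and was highest in WT replicate 2, as were the collagens. *Loxl1*, a lysyl oxidase that crosslinks elastin and collagen, had 2406, 2864, 1605 and 2383 TPM. *Pcolce*, an enhancer of procollagen cleavage, had 1497 ± 346 TPM and *P4hb*, a subunit of prolyl hydroxylase, 1463 ± 78.2 TPM. *Loxl2* had 495 ± 130.1 TPM, and all 33 listed genes of this group were above the floor of 3 counts in at least 1 library.

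Matrix-degrading enzymes were led by *Mmp2*, with 4980.2, 3581, 3102 and 4055 TPM, and by the serine protease *Htra3*, with 1812, 1791, 923 and 1593 TPM. *Mmp14*, which activates pro-MMP2 at the cell surface, had 338 ± 78.8 TPM. The cathepsin genes *Ctsb* and *Ctsl* had 459 ± 199.6 and 382 ± 54.1 TPM. *Mmp1b*, *Mmp7*, *Mmp8*, *Mmp13* and *Mmp21* were at or under 3 counts in every library, so transcripts of these metalloproteinases were not detectable at this depth. The inhibitors had 1555, 2189.8, 1188 and 1668 TPM for *Timp2*, 1877, 1841, 3410.1 and 2179 TPM for *Cst3* (cystatin C) and 836, 1341, 1255 and 1081 TPM for *Serpinf1* (PEDF). *Pi16*, a marker of a fibroblast subset in many tissues, had 742, 702, 801 and 854 TPM. Hyaluronan genes took 0.021 ± 0.004% of the counts, and *Has2*, a hyaluronan synthase, had 46.8 ± 11.7 TPM.

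**Figure D3:**
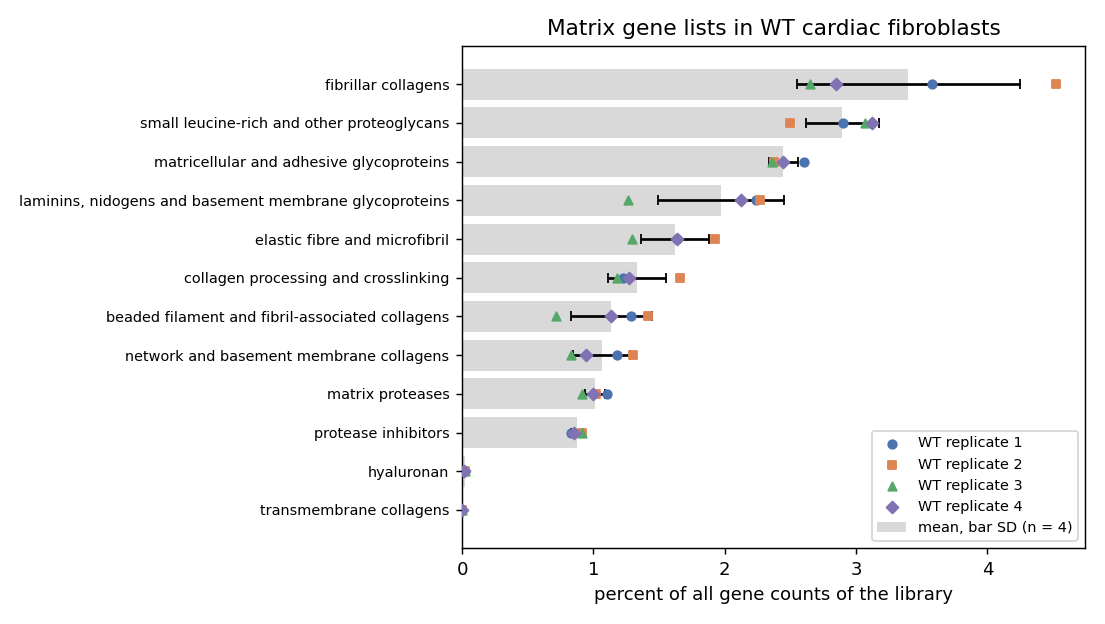
Percent of all gene counts taken by each matrix list, with the mean and SD over the 4 WT libraries (bars) and 1 point per library. Fibrillar collagens take the most in WT replicate 2, and laminins and beaded filament collagens the least in WT replicate 3, while the matricellular and the protease inhibitor lists are even on this scale.

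Receptors took 2.95 ± 0.260% of the counts, and 34 of 306 listed genes had at least 100 TPM in every library. *Axl*, a receptor tyrosine kinase that binds GAS6, was the highest, with 2482, 2702, 1862 and 3098 TPM, and lay 2.61 to 5.26 times above *Pdgfra*. *Pdgfra* (ENSMUSG00000029231.15, chr5:75152292-75198215) had 696 ± 134 TPM and *Pdgfrb*, its mural cell relative, 248 ± 57.6 TPM, a ratio of 2.45, 1.82, 4.27 and 3.37. *Tek* had 400.1 ± 58.5 TPM, and *Ret*, a receptor best known from enteric neurons and kidney, had 261, 424, 145 and 259 TPM. *Ddr2*, a kinase that binds fibrillar collagen, and *Egfr* followed with 192 ± 21.5 and 164 ± 15.02 TPM in the order of their means.

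Receptors of the TGF-beta family were led by the co-receptors *Tgfbr3* (betaglycan), with 294, 381, 164 and 399 TPM, and *Eng* (endoglin), with 345, 406, 152 and 328 TPM. *Tgfbr2*, the type II receptor, had 270.1, 304, 248 and 309 TPM and varied less, while *Tgfbr1*, the type I receptor, had 49.9 ± 5.88 TPM. *Tgfbr2* was therefore above *Tgfbr1* in all 4 libraries. *Acvrl1* had 209 ± 20.8 TPM and *Bmpr1a* 109 ± 21.8 TPM. Among receptors of Wnt, Hedgehog and Notch signals, the endocytic receptor *Lrp1* had 815, 1187, 628 and 1021 TPM, *Gas1*, which binds Hedgehog, 644, 703, 409.8 and 537 TPM, and *Smo*, the transducer of that signal, 141, 165, 209.9 and 149 TPM. *Fzd1* had 151 ± 30.7 TPM and *Notch2* 162 ± 41.6 TPM.

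Integrins join the cell to this matrix. *Itgb5* and *Itgb1* stood above all alpha chains, with 652, 760.0, 726 and 709.7 TPM and 774, 708, 671 and 685 TPM, and *Itgb5* was higher in 3 of 4 libraries. The highest alpha chains were *Itga5* of the fibronectin receptor, with 95.7, 182, 32.4 and 110.4 TPM, *Itgav* with 86.4, 90.0, 72.6 and 81.5 TPM and *Itga11*, a collagen receptor of fibroblasts, with 75.7, 86.3, 97.6 and 59.0 TPM. The means of these 3 alpha chains differed by less than the SD of *Itga5*. *Itga1*, an alpha chain that binds collagen together with beta1, had 22.5 ± 4.28 TPM.

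Cytokine receptors were led by *Ifngr1*, with 295, 364, 398 and 333 TPM, the IL-6 family transducer *Il6st*, with 327, 262, 279 and 345 TPM, and *Ltbr*, with 277, 293, 294 and 307 TPM. *Tnfrsf1a* and *Lepr*, receptors for TNF and leptin, had 248.8 ± 60.7 and 148 ± 19.2 TPM. The chains *Il2rg* and *Il7r*, which lymphocytes use, were at or under 3 counts in every library. Among the receptors coupled to G proteins and their partners, *Ackr3*, a scavenger of CXCL12, had 883, 818, 577 and 915 TPM. *Ramp2* and *Calcrl*, which form the adrenomedullin receptor together, had 576 ± 152 and 239.7 ± 30.9 TPM. *Cmklr1*, *F2r* (the thrombin receptor) and *Lpar1* had 357 ± 70.7, 317 ± 90.0 and 264 ± 17.7 TPM.

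Secreted factors took 7.04 ± 1.01% of the counts, and 3.16 ± 0.225% without *Gsn*, whose counts do not separate its secreted form. *Fstl1*, a follistatin-like glycoprotein of the epicardium, had 1796, 2614, 2531 and 2029 TPM, *Apoe* 2191, 1778, 2296 and 2746 TPM and *Islr*, which encodes meflin, 1981, 2333, 1997 and 2212 TPM. *Ccdc80* and *Gpx3* had 1961 ± 323 and 1353 ± 367 TPM. *Angptl2*, an angiopoietin-like gene, had 1275 ± 222 TPM. Angiogenic ligands were lower, with 177 ± 75.6 TPM for *Pgf* and 126 ± 42.2 TPM for *Vegfa*, the main ligand of the family. *Gas6*, the ligand of AXL, had 328, 598, 639 and 449 TPM and *Igf1* 127, 138, 131 and 127 TPM. *Igf1* was thus even across the libraries, while *Gas6* was lowest in WT replicate 1.

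Several carriers and antagonists of growth factors lay above the ligands of their own group. *Igfbp4* had 1099, 1817, 1223 and 1617 TPM, *Igfbp6* 838, 570.1, 1269.7 and 855 TPM and *Igfbp3* 362, 343, 205 and 598 TPM, each above *Igf1* in all 4 libraries, and *Igfbp2* was at or under 3 counts. Among the TGF-beta ligands *Tgfb3* had 238, 213, 237 and 250.5 TPM and *Tgfb2* 63.0, 51.9, 33.2 and 55.7 TPM, so that *Tgfb3* was 3.78 to 7.13 times as high. *Bmp4* and *Bmp6* had 140.1 ± 35.5 and 132 ± 27.1 TPM. The BMP antagonist *Nbl1* had 506 ± 99.2 TPM, and *Twsg1*, which binds BMPs as well, 245 ± 14.4 TPM, while the antagonist *Grem1* was at or under 3 counts. In the Wnt group the antagonists *Sfrp1*, *Frzb* and *Dkk3* had 326 ± 73.6, 239 ± 16.2 and 103 ± 34.5 TPM, where the highest ligand, *Wnt11*, had 39.6 ± 17.6 TPM.

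Immune mediators differed between the libraries. Complement genes took 0.462, 0.583, 0.665 and 0.482% of the counts in the 4 libraries. *C3*, the central component, had 168, 1012, 727 and 472 TPM and *C1ra*, a protease of the classical pathway, 209.8, 512, 659.6 and 258 TPM. Both were lowest in WT replicate 1, and *C3* spread 6.23-fold between the libraries on the CPM scale. Among chemokines *Cxcl14* had 285, 687, 1159.6 and 444 TPM and *Cxcl1*, which attracts neutrophils, 169, 34.7, 463 and 106 TPM, both highest in WT replicate 3. *Ccl7* was even, with 78.8, 81.2, 94.7 and 74.4 TPM, and *Ccl2*, which attracts monocytes, had 104, 35.7, 94.9 and 112 TPM. The cytokines *Il17d*, *Mif* and *Il33* had 212 ± 28.4, 168 ± 7.97 and 53.3 ± 19.2 TPM. Among guidance cues *Ntn1* (netrin-1) had 269 ± 40.3 TPM and *Sema3c* 135 ± 16.2 TPM.

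**Figure D4:**
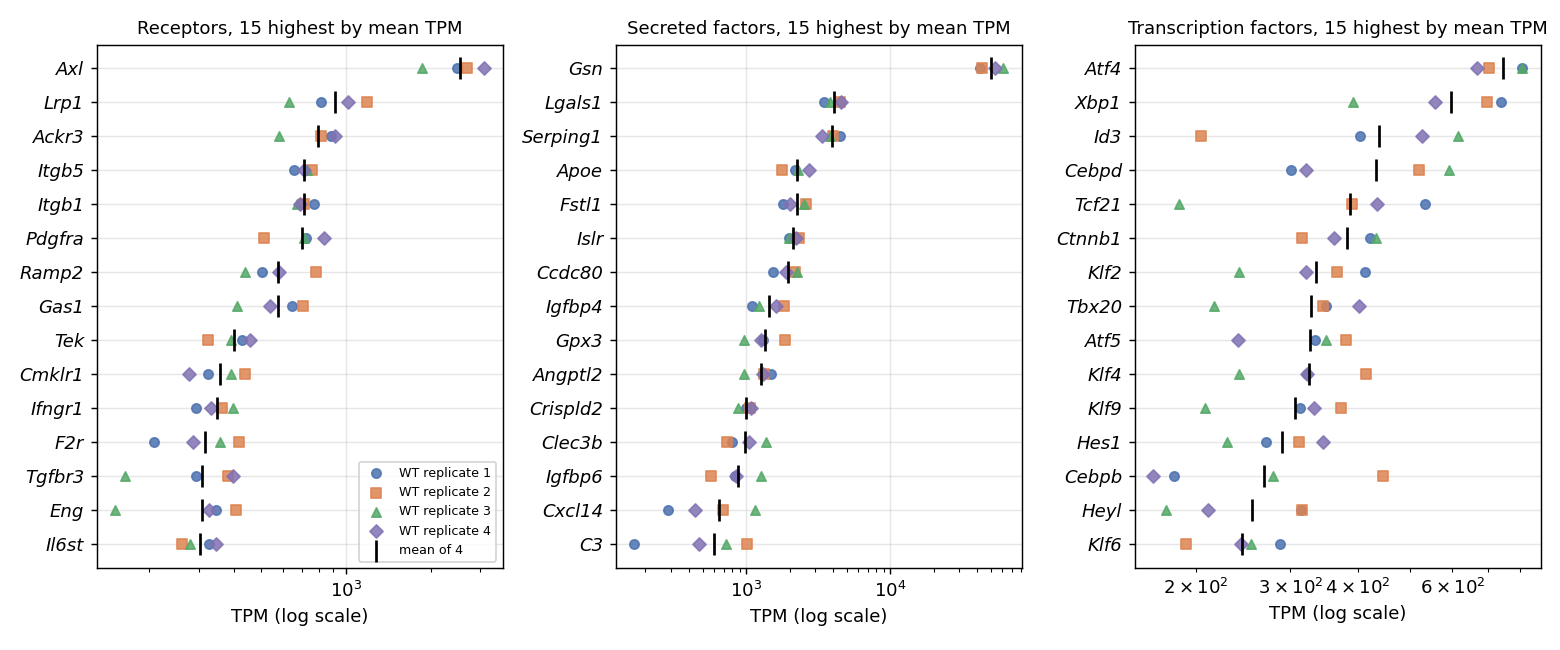
TPM (log axes) of the 15 receptors, secreted factors and transcription factors with the highest mean TPM, 1 point per WT library and a bar at the mean. *Axl*, *Gsn* and *Atf4* head their lists, of which the last leaves out immediate-early factors such as *Fos* and *Junb*, *Itgb1* and *Itgb5* are even across libraries, and *C3*, *Cxcl14* and *Cebpb* are spread.

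Transcription factor genes took 2.29 ± 0.131% of the counts, and 33 of 393 listed genes had at least 100 TPM in every library, with 0 at 1000 TPM or more. The list leaves out immediate-early factors such as *Fos* and *Junb*, which had 869.9 ± 511 and 885 ± 524 TPM. *Atf4* and *Xbp1* headed the listed genes, with 808, 701, 807 and 666 TPM for *Atf4*, the factor of the integrated stress response, and 738, 696, 392 and 557 TPM for *Xbp1*, a factor that expands the endoplasmic reticulum of secretory cells. Lineage factors of cardiac fibroblasts lay lower, among factors of other families. *Tcf21* (ENSMUSG00000045680.8, chr10:22817281-22820174) had 534, 390.1, 187 and 435 TPM, *Tbx20*, a T-box factor of the heart, 349, 344, 217 and 402 TPM and *Meox1*, a homeobox factor known from activated fibroblasts, 189, 178, 398 and 199 TPM. *Tbx20* lay above *Tcf21* in 1 of 4 libraries, WT replicate 3, so their order is not settled by these libraries. *Gata4*, a factor shared with cardiomyocytes, had 190.1, 132, 118 and 155 TPM, and *Zeb1* 199, 149.8, 157 and 190.1 TPM. *Hand1*, *Nkx2-5* and *Msx2* were at or under 3 counts in every library, and *Nkx2-5* is a defining factor of cardiomyocytes.

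Among other families, the Kruppel-like factors *Klf2*, *Klf4* and *Klf9* had 335 ± 73.0, 325 ± 70.8 and 306 ± 70.2 TPM. Effectors of signaling included *Ctnnb1* (beta-catenin), with 422, 315, 432 and 361 TPM, the Notch targets *Hes1* and *Heyl*, with 289 ± 50.5 and 254 ± 71.0 TPM, and *Smad3*, with 266, 113, 142 and 177 TPM. *Wwtr1*, which encodes TAZ, had 136 ± 10.4 TPM. The nuclear receptor genes *Thra* (thyroid hormone), *Nr3c1* (glucocorticoids) and *Nr1d1*, of the circadian clock, had 237 ± 44.7, 135 ± 15.2 and 201 ± 76.8 TPM. *Id3*, an inhibitor of basic helix-loop-helix factors, had 403, 204, 615 and 527 TPM and was lowest in WT replicate 2. Hox and other homeobox factors had a median of 0.887 TPM over 81 listed genes, against 8.96 TPM over all genes. Of these, 18 had enough counts in every library and a mean of at least 10 CPM.

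Transcripts of contractile and of dividing cells were counted as well. *Acta2*, which marks myofibroblasts and smooth muscle, had 29.5, 93.4, 71.0 and 41.2 TPM and *Postn*, which marks activated fibroblasts, 121, 141, 259.9 and 92.9 TPM. *Fn1* (fibronectin) had 242 ± 66.2 TPM and *Ctgf* (current symbol *Ccn2*) 121 ± 59.7 TPM, while *Tagln* stayed at or under 3 counts in every library. The 30 proliferation genes took 0.0238, 0.0721, 0.0347 and 0.0227% of the counts. *Lmna*, the gene that the study deletes in its other mice, had 235, 189, 314 and 254 TPM here, or 32.7, 5.31, 32.6 and 18.1 times the level of *Lmnb1*.

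The spread between the 4 libraries was examined gene by gene. With a single library per mouse, it does not separate differences between mice from those of preparation. Of 10928 genes tested, 9760 (89.3%) varied more between the libraries than counting error gives, in an index of dispersion test with an adjusted p under 0.05. The common biological coefficient of variation, the spread that remains once counting error is taken out, was 0.314 with edgeR, and 0.253 without WT replicate 3. Its trend fell from 0.445 for genes near 10 CPM to 0.228 near 100 CPM and 0.221 near 1000 CPM. Matrix genes were called in 184 of 198 cases, receptor genes in 183 of 196, secreted factors in 156 of 170 and transcription factors in 224 of 245, shares close to that of all genes. The test has more reach at high counts, and genes with too few counts in a single library, such as *Tnnc1* and *Ddx3y*, did not enter it.

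The ratio of a gene's own coefficient to the trend at its level had a median of 0.942, and 139 genes (1.27%) lay over 1.5 times the trend. The median ratio was 1.01 for matrix genes, 0.984 for receptors, 1.02 for secreted factors and 0.970 for transcription factors. Among the 9318 genes at a mean of at least 10 CPM, those lowest relative to the trend included *Timm10*, *Fbxo45*, *Setd1a*, *Nop16*, *Ndufc1*, *Pcdhb16*, *Fam120c*, *Rfc2* and *Msrb2*, at 0.82 times the trend after edgeR's shrinkage toward it. These are not the genes of least spread as such, since the coefficient was 0.358 for *Timm10* and 0.185 for *Itgb1*, a gene of higher level. *Setd1a*, which encodes a histone methyltransferase, had 18.1, 17.3, 17.8 and 17.3 CPM and *Fbxo45*, a ubiquitin ligase subunit, 18.0, 18.3, 18.9 and 18.2 CPM. Among the same 9318 genes, the 20 with the widest spread relative to the trend lay between 2.07 and 3.03 times the trend. *Rpl29* and *Rps16*, ribosomal protein genes with near-identical copies, are among them and are uncertain.

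WT replicate 2, the shallowest library, was highest for most listed genes of cell division and of the glucocorticoid response. *Top2a*, a topoisomerase of dividing cells, had 1.92, 96.7, 28.1 and 4.75 CPM, *Mki67* 9.21, 78.9, 14.9 and 3.53 CPM and the cyclin gene *Ccnd1* 13.8, 184, 12.3 and 16.7 CPM. Of 30 proliferation genes, 21 were highest in this library, against 27% of all genes over the floor. *Zbtb16*, a zinc finger factor that glucocorticoids induce, had 46.9, 467, 30.3 and 128 CPM and *Tsc22d3* (GILZ) 325, 909.9, 261 and 423 CPM. On a list of 13 such genes, 10 were highest in WT replicate 2, against 27% of all genes over the floor. The list was added after the values were seen, so this count is no independent support. Immediate-early genes, a class that also responds to tissue digestion, had 529, 143, 907 and 454 CPM for *Fos* and 410.3, 188, 950.4 and 480.4 CPM for *Junb*, and 17 of 35 were lowest in this library, against 29.5% of all genes. Why WT replicate 2 differs was not tested.

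WT replicate 3 was highest for most listed interferon-induced genes. *Ifi27l2a* had 124, 194, 673 and 230.4 CPM, *Bst2* (tetherin) 14.9, 18.8, 75.6 and 15.9 CPM and *Ifit3* 16.0, 18.3, 63.2 and 16.7 CPM, and 15 of 20 interferon-induced genes, a list added after the values were seen, were highest in this library, against 28.1% of all genes over the floor. *Serpina3n*, an acute-phase protease inhibitor, had 23.3, 227, 399 and 47.1 CPM, high in WT replicates 2 and 3, and *Cxcl1* 74.5, 15.8, 225 and 48.8 CPM. *Ifi205*, an interferon-inducible gene with close relatives beside it, was highest in WT replicate 2 instead, with 10.5, 129, 32.7 and 29.9 CPM. Immediate-early genes were highest here for 23 of 35, to be read against the same share. *Ddit4*, a stress gene that limits mTOR, had 18.1, 87.8, 1.73 and 14.6 CPM and was lowest in this library. The lower cardiomyocyte, hemoglobin and Y-linked counts and the lower levels of several matrix genes given above belong to the same library, and their part in its other values was not tested.

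WT replicate 4 was lowest for the lung epithelial genes described above, to which *Slc34a2*, a phosphate transporter, adds 29.0, 69.1, 132 and 5.76 CPM, and for the sum of the leukocyte markers, whose *Lyz2* (lysozyme) had 50.4, 71.5, 132 and 20.8 CPM. *Lyz2* and *Slc34a2* ordered the libraries alike, and whether the leukocyte sum moved apart from the lung epithelial genes was not tested. WT replicate 1 was lowest for *C3*, with 203, 1264, 968 and 597 CPM, and for *Serpina3n*. *Zfp592*, a zinc finger gene, had 191, 346, 29.5 and 190.5 CPM and was lowest in WT replicate 3.

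**Figure D5:**
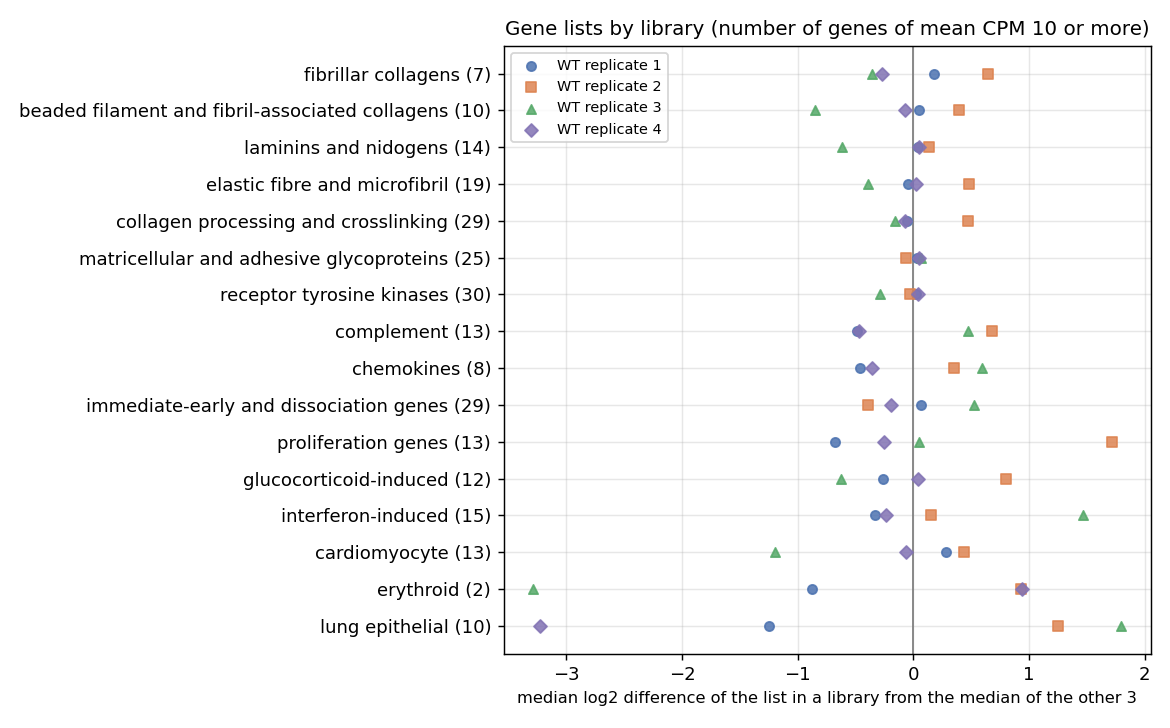
Median log2 difference of each gene list in a library from the median of the other 3 WT libraries, over genes at a mean of at least 10 CPM (their number in parentheses), 1 point per library. A gene can reach this mean through 1 high library, which raises the value of its list there. Proliferation genes are high in WT replicate 2, interferon-induced genes are high and cardiomyocyte and erythroid genes low in WT replicate 3, and lung epithelial genes are low in WT replicate 4, while matricellular genes stay near 0.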

How the data were processed

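Reads were mapped by the authors with HISAT2 (mm10) and assigned to GENCODE genes with featureCounts, and the deposited files hold whole-number counts, 1 column per mouse. The study's methods name an RUV normalization beside the counting, and whether it touched the deposited counts cannot be told from the files, which would bear on the spread between libraries. They were taken as raw counts. The submitters' processing notes also name FastQC and DESeq2, without versions. The lowest total of a listed gene over the 8 libraries of the series is 4 counts. Of 18957 listed genes, 18927 matched GENCODE M21, which gave gene positions and merged exon lengths, and 24 symbols had been turned into dates. Symbols are printed as in the deposited file.

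The 4 libraries labelled WT were used alone. CPM was computed with TMM factors in edgeR (4.0.16, R 4.3.3) and TPM, shares and ratios in Python (3.11.15). Genes with enough counts were chosen with filterByExpr (minimum count 10, applied as the CPM that it gives at the median library size and met in all 4 libraries, so that fewer counts pass in the shallowest, and minimum total 15), and log2 CPM used a prior count of 2. Spread between libraries was tested with an index of dispersion chi-square test with Benjamini-Hochberg adjustment over all genes tested, and the biological coefficient of variation came from an intercept-only edgeR fit. In counts of genes highest or lowest in a library, a tie went to the lower-numbered library. The p-values measure the spread between these 4 samples, each from 1 mouse. The computations were checked on simulated counts. The intervals and the floor of 3 counts cover counting error only.

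The genes named are the 30 highest by mean TPM, the 5 highest of each list and its members at the floor, collagen chains, cell type markers, *Lmna*, sex-linked genes, and the genes with the widest and narrowest spread relative to the trend or farthest from the other libraries, of which those that carry the description are printed. Genes were ranked by spread or by distance from the other libraries only at a mean of at least 10 CPM. The question and the lists were chosen with earlier results of these data known, and 3 of the 58 lists were added after the values were seen. Alternatives were other scaling factors, filters and gene lengths, thinned libraries and leaving out each replicate. RLE factors were computed with edgeR. Promoter windows came from a RefSeq table of build GRCm38.p6, and a gene not in it is not shown. Some genes that meet the naming rule are not reported here.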

Additional observations from a re-analysis of the deposited data

Results flagged for a closer look

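Of 288 values with 4 libraries each that were examined, 19 had 1 library whose gap to the nearest of the others took up most of the range of the group (Dixon's 95% critical value for 4 samples). Chance flags about 1 in 20 such groups, a rate that does not apply to what was added or named because it stood apart or varied widely in these libraries, such as the interferon-induced and glucocorticoid-induced lists, *Bst2*, *Ifit3*, *Mki67*, *Ccnd1* and *Rpl29*. The odd library was WT replicate 3 in 10 cases, WT replicate 2 in 6, WT replicate 1 in 2 and WT replicate 4 in 1.

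In WT replicate 3, *Col15a1*, a basement membrane zone collagen, stood at 2200.1 CPM, where the other libraries had 3465 to 3534 CPM, and *Col3a1* was 7.42 times as high as *Col1a1*, against 2.998 to 3.71. Laminins, nidogens and basement membrane glycoproteins took 1.26% of its counts, against 2.13 to 2.27%. The collagen receptor *Ddr2* stood at 536 CPM, against 402 to 411 CPM, and the TGF-beta receptor *Tgfbr1* at 99.1 CPM, against 73.9 to 74.4 CPM. *Meox1* was at 229 CPM, where the others had 96.2 to 109 CPM, and the alarmin gene *Il33* at 61.1 CPM, against 28.7 to 33.6 CPM. The interferon-induced list took 0.168% of the counts, against 0.0738 to 0.0888%. Its members *Bst2* and *Ifit3* were at 75.6 CPM, against 14.9 to 18.8 CPM, and at 63.2 CPM, against 16.0 to 18.3 CPM.

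In WT replicate 2, *Mki67* was at 78.9 CPM, against 3.53 to 14.9 CPM, and *Ccnd1* at 184 CPM, against 12.3 to 16.7 CPM. *Ccl2* was at 9.87 CPM, against 27.9 to 31.4 CPM. The glucocorticoid-induced list took 0.381% of the counts, against 0.208 to 0.224%, and the 50 highest genes 24.2%, against 22.6 to 22.7%. *Nop16*, a gene chosen for its low spread relative to the trend, was at 18.3 CPM, against 17.0 to 17.1 CPM.

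In WT replicate 1 the adipocyte markers took 0.0148% of the counts, against 0.00733 to 0.00810%, and *Ndufc1*, chosen in the same way, was at 10.9 CPM, against 9.80 to 9.90 CPM. In WT replicate 4, *Rpl29*, which has near-identical copies, was at 191 CPM, against 10.4 to 23.7 CPM.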

How the results depend on the processing

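Apart from leaving out libraries, 701 of 726 alternative values stayed within the spread between the libraries or, for counts of genes, within 1.5 times, and 25 moved. Most of these values came from RLE factors, upper-quartile factors and library totals in place of TMM, which moved none. They could hardly do so, since the TMM factors lay between 0.974 and 1.02 and the others close to them. Without a filter, 15331 genes in place of 9760 were called for spread, and the common biological coefficient of variation was 0.593 in place of 0.314. Leaving out 1 replicate gave 0.253 to 0.344, the lowest without WT replicate 3, and 7984 to 9540 genes called. It cannot move a mean far against an SD of the same 4 libraries, so its effect on levels is given as a fold. For 18 named genes the mean CPM changed over 1.5 times. Without WT replicate 2 it fell in 9 of them, among them *Ccnd1* from 56.7 to 14.4, *Top2a* from 32.9 to 11.6, *Zbtb16* from 168 to 69.2 and also *Mki67*, *Ddit4*, *Ifi205*, *Tnnc1*, *Tnni3* and *Lmnb1*, and the ratio of *Col1a1* to *Dcn* fell from 0.233 to 0.151. Without WT replicate 3 it fell in 8, among them *Ifi27l2a* from 306 to 183, *Cxcl1* from 90.9 to 46.4, *Bst2* from 31.3 to 16.5 and also *Ifit3*, *Serpina3n*, *Sftpa1*, *Sftpc* and *Slc34a2*. Without WT replicate 4 that of *Rpl29* fell from 59.2 to 15.1. Thinned libraries lowered the median Spearman correlation from 0.925 to 0.880. TPM in place of counts gave 29.9% for the 100 highest genes, 51.3% for the 500 highest and 14.01% for the matrix lists, and moved 10 of 12 matrix lists, over 1.5 times for the collagen lists (fibrillar from 3.40 to 1.48%, network and basement membrane from 1.06 to 0.623%, beaded filament and fibril-associated from 1.14 to 0.718%, transmembrane from 0.00146 to 0.000915%), the laminins and nidogens (from 1.97 to 0.884%) and the elastic fiber genes (from 1.62 to 1.07%). The length of the longest transcript moved the ratios of *Col1a1* to *Col1a2* to 0.481, *Col4a1* to *Col4a2* to 2.97, *Col6a1* to *Col6a2* to 1.92, *Col6a3* to *Col6a1* to 0.272, *Lamb1* to *Lamc1* to 0.836, *Col3a1* to *Col1a1* to 6.87, *Itga1* to *Itgb1* to 0.0503 and *Pdgfra* to *Pdgfrb* to 4.32. By CPM, 15 of the 30 highest genes by TPM remained among the 30 highest. Leaving out mitochondrial genes gave no value, since none are listed. The alternatives for the added lists and the thinned number of detected genes were chosen after seeing the data. No paired analysis was possible because only the WT group is described.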
